A study of Mus musculus with 8 samples.

Results

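Expression of 5 mouse genes of the galectin system, Lgals1, Lgals3, Lgals8, Lgals9 and Lgals3bp, was described in B16-F10 cells, a mouse melanoma line, out of 46477 rows of an expression table. The genes were taken by symbol, and all 5 symbols were present. They were chosen by their FPKM in these same libraries, with its differences by medium, siKLF4 and siFN in view. Their levels and differences are therefore given as a description, without a test.

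The melanoma cells had been cultured for 24 hours on extracellular matrix laid down by SMCs, read here as smooth muscle cells. These had first received siRNA for 72 hours, had then spent 72 hours in TCM or SFM, and were lysed before the melanoma cells were added. The 8 conditions were TCM siKLF4-siFN, TCM siFN, TCM siKLF4, TCM siNT, SFM siKLF4-siFN, SFM siFN, SFM siKLF4 and SFM siNT, each with 1 library of total RNA. TCM is read here as the medium conditioned by B16-F10 tumor cells that the series title names, siFN as siRNA against fibronectin and siNT as the non-targeting control, while SFM is not spelled out. The siRNA was thus never given to the melanoma cells, and the source of the smooth muscle cells is not given in the sources used here. No condition has a replicate, so the difference between 2 libraries has no replicate check.

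Galectins are small lectins that bind beta-galactosides, above all N-acetyllactosamine on the glycans of cell surfaces and matrix. They are made in the cytosol and leave the cell without a signal peptide, so they work both inside and outside cells. Galectin-1 is a dimer of identical subunits, galectin-3 joins 1 lectin domain to a tail through which it self-associates, and galectin-8 and galectin-9 each carry a pair of different lectin domains. In melanoma, galectin-1 and galectin-3 are known for roles in adhesion to matrix, invasion and the killing or silencing of T cells. Lgals3bp does not encode a lectin of this family but a secreted glycoprotein that galectin-3 binds.

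The 250 bases upstream of the RefSeq start were available for 4 of the 5 genes, on build GRCm38.p6. They are shown because the RNA of these 4 genes is compared below, and because Lgals9 and Lgals3bp are known as interferon-induced genes. Each is written 5′ to 3′ on the gene's strand, and capitals mark matches to the motifs searched.
Lgals3 (chr14:47373610-47373859, plus strand): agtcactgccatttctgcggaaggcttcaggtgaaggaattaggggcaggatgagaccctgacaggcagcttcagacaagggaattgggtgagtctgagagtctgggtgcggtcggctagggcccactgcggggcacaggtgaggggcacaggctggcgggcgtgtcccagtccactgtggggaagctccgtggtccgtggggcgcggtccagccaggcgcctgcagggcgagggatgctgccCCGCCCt
Lgals8 (chr13:12461739-12461988, minus strand): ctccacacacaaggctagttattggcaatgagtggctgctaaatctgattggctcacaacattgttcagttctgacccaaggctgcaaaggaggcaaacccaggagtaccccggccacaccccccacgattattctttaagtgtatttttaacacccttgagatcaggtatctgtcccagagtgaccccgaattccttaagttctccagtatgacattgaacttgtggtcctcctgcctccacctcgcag
Lgals9 (chr11:78984925-78985174, minus strand): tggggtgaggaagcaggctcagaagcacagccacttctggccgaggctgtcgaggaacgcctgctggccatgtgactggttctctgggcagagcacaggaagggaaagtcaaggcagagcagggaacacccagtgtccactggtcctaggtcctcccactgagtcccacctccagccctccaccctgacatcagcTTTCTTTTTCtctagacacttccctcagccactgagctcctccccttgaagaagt
Lgals3bp (chr11:118401960-118402209, minus strand): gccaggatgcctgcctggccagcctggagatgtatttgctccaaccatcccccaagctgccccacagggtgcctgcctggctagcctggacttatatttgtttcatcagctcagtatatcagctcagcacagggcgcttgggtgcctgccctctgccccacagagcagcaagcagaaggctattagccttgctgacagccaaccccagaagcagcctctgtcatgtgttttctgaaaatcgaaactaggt
The motifs searched on both strands were TGANTCA (AP-1), CACGTG (E-box), GGGCGG (GC box) and the core of the interferon-stimulated response element (TTTC and TTTC spaced by any 2 bases). Lgals3 had 1 GC box, on the opposite strand and beginning at position -7 from the start, and 32.7% of all 32851 RefSeq windows of this length held that motif. Lgals9 had 1 match to the interferon core, beginning at position -55, against 2.98% of all windows. The letters TGANTCA (6.75% of windows) and CACGTG (6.02%) were in none of the 4 windows, and the interferon core was not in that of Lgals3bp. Matches overlapped no other match. The windows of Lgals3 and Lgals8 lie inside the gene spans given below, and those of Lgals9 and Lgals3bp overlap theirs. The windows are thus upstream of a RefSeq start, which is not the outermost start annotated for these genes.

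Levels were deposited as FPKM, fragments scaled to gene length and library size, so they can be set side by side between genes. Sequencing depth, estimated from the smallest steps between FPKM values, was about 11600000 to 23000000 reads per library. The cells carried the transcripts of their label: 7 of 10 melanocyte markers averaged an FPKM of 1 or more, and the list's summed FPKM was 356 to 567. Of 9 smooth muscle markers, 1 reached that mean (Des, 1.07), and the sum was 1.28 to 2.25, with Acta2 and Myocd listed at 0 in all libraries. None of 7 fibroblast or 5 endothelial markers reached it. Of 8 macrophage and leukocyte markers, Cd68 did (2.93), while Adgre1, Itgam and C1qa were listed at 0 throughout.

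Lgals1 was by far the most abundant of the 5 transcripts, with a mean FPKM of 176, rank 155 among the 6917 genes whose mean FPKM reached 1. Lgals3 followed at 15.04, then Lgals8 at 4.74, Lgals3bp at 4.21 and Lgals9 at 0.259, below the filter of 1 used for the model fits. So 4 of the 5 genes entered those fits. The Lgals9 level stands for only about 3.24 to 13.3 reads per library.

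**Figure D1:**
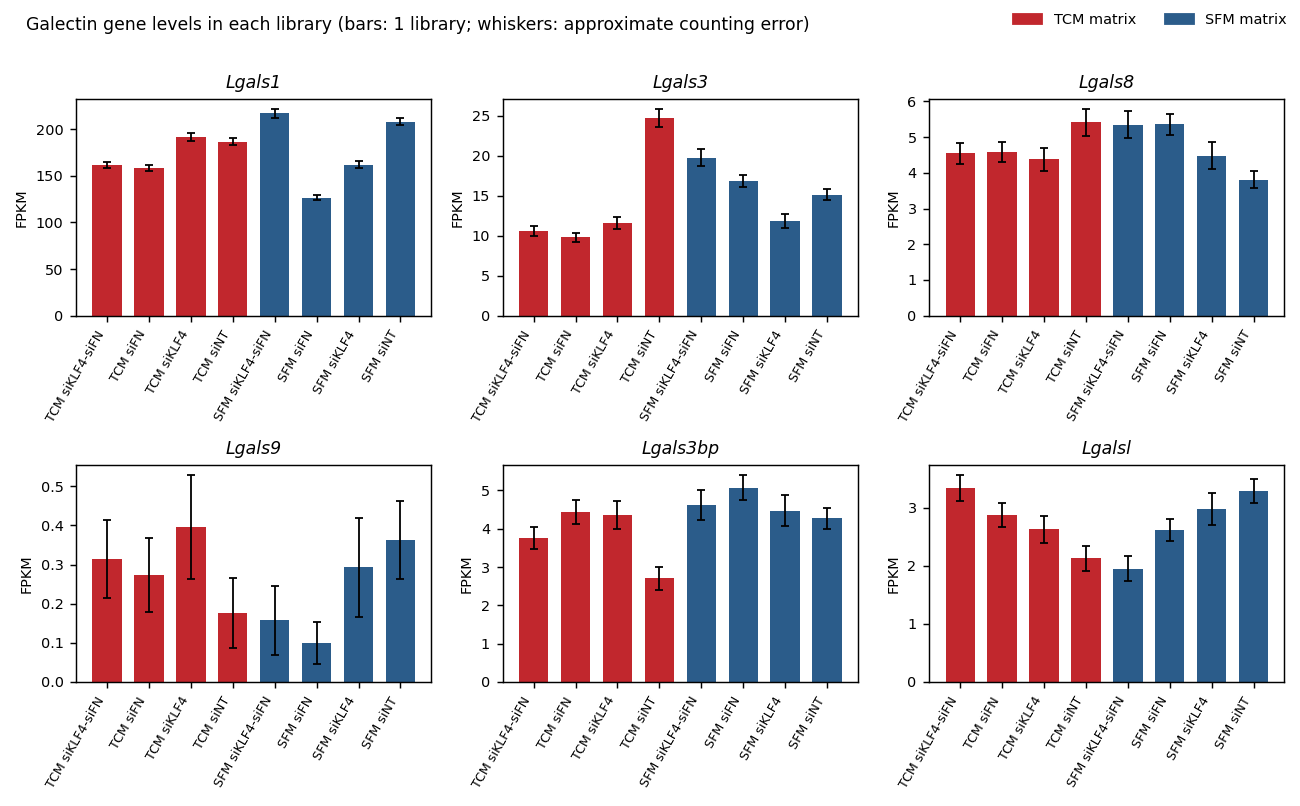
FPKM of the 5 genes and of Lgalsl in each of the 8 libraries (bars, 1 library each; red for TCM matrix, blue for SFM matrix). Whiskers are the approximate counting error, which leaves out differences between cultures. Lgals3 was highest in TCM siNT, where Lgals3bp was lowest.

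Lgals1 encodes galectin-1 and lies on chromosome 15 (78926725 to 78930465, plus strand, GRCm38). Its FPKM was 161 in TCM siKLF4-siFN, 158 in TCM siFN, 191 in TCM siKLF4 and 187 in TCM siNT, against 217 in SFM siKLF4-siFN, 127 in SFM siFN, 162 in SFM siKLF4 and 208 in SFM siNT. The extremes were both SFM libraries, and the 4 TCM libraries lay between them. The ratio of highest to lowest was 1.71. With a counting error of 1.62% to 2.58%, SFM siFN stood below its neighbour TCM siFN by more than counting noise. TCM siFN, TCM siKLF4-siFN and SFM siKLF4 could not be told apart by counting error, nor could TCM siNT and TCM siKLF4, or SFM siNT and SFM siKLF4-siFN. The processed copy Lgals1-ps2 on the same chromosome had an FPKM of 1.12 in TCM siKLF4 and 0.322 in TCM siFN and at most 0.0044 elsewhere. The value of 1.12 stands for about 8.34 reads, against at least 1503 for Lgals1 in any library.

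Lgals3 encodes galectin-3 and lies on chromosome 14 (47367751 to 47386160, plus strand). Its FPKM was 10.6 in TCM siKLF4-siFN, 9.78 in TCM siFN, 11.6 in TCM siKLF4 and 24.7 in TCM siNT, against 19.8 in SFM siKLF4-siFN, 16.9 in SFM siFN, 11.8 in SFM siKLF4 and 15.1 in SFM siNT. TCM siNT was the highest and the other 3 TCM libraries were the lowest of all 8. The range from lowest to highest was 2.53-fold, and the SD over the 8 libraries on the log2(FPKM + 1) scale, 0.44, was above that of 90.0% of the tested genes (median SD 0.20). Among 653 genes within 0.5 of its mean log2 level it was above 89.4%, and neither share is a test. By counting error (4.46% to 7.17%), TCM siNT was apart from SFM siKLF4-siFN, that library from SFM siFN, and SFM siNT from SFM siKLF4. SFM siFN and SFM siNT were not, nor were neighbours among the 4 lowest libraries.

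Lgals8 encodes galectin-8, a sensor of damaged endosomes and lysosomes, and lies on chromosome 13 (12439415 to 12464944, minus strand). Its FPKM was 4.54 in TCM siKLF4-siFN, 4.58 in TCM siFN, 4.38 in TCM siKLF4 and 5.41 in TCM siNT, against 5.35 in SFM siKLF4-siFN, 5.35 in SFM siFN, 4.48 in SFM siKLF4 and 3.81 in SFM siNT. The 3 highest libraries were TCM siNT, SFM siFN and SFM siKLF4-siFN, as for Lgals3. The range was narrow, 1.42-fold, and no library differed from its neighbour in rank by more than counting error (5.59% to 8.22%). Heatr1, a ribosome biogenesis gene on the other strand, shares 155 of the 3688 exonic bases of Lgals8, and the strand setting of the counting is not given in the sources used here. Heatr1 was also highest in SFM siFN (2.03), SFM siKLF4-siFN (2.02) and TCM siNT (1.65), against 1.14 to 1.36 elsewhere, and its part in the Lgals8 values was not tested.

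Lgals9 encodes galectin-9, a ligand of the T cell receptor TIM-3, and lies on chromosome 11 (78962974 to 78984946, minus strand). Its FPKM was 0.314 in TCM siKLF4-siFN, 0.274 in TCM siFN, 0.396 in TCM siKLF4 and 0.177 in TCM siNT, against 0.157 in SFM siKLF4-siFN, 0.0994 in SFM siFN, 0.293 in SFM siKLF4 and 0.364 in SFM siNT. The 3 lowest libraries were those with the most Lgals8. At a counting error of 27.5% to 55.5%, no neighbours in the order were distinguishable at this depth.

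Lgals3bp lies on chromosome 11 (118392751 to 118402092, minus strand). Its FPKM was 3.75 in TCM siKLF4-siFN, 4.45 in TCM siFN, 4.35 in TCM siKLF4 and 2.70 in TCM siNT, against 4.61 in SFM siKLF4-siFN, 5.07 in SFM siFN, 4.47 in SFM siKLF4 and 4.27 in SFM siNT. TCM siNT was the lowest library, and it was the only one apart from its neighbour by more than counting error (6.35% to 10.7%). Lgals3 and its secreted ligand therefore had their highest and lowest value in the same library.

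Of the other galectin genes, Lgalsl, which encodes a galectin-related protein without lactose binding, was the only one that averaged an FPKM of 1 or more. Its FPKM was 3.34 in TCM siKLF4-siFN, 2.88 in TCM siFN, 2.63 in TCM siKLF4 and 2.13 in TCM siNT, against 1.95 in SFM siKLF4-siFN, 2.62 in SFM siFN, 2.98 in SFM siKLF4 and 3.28 in SFM siNT. Its 3 lowest libraries were those with the most Lgals3 and Lgals8, but SFM siFN was not apart from TCM siKLF4 by counting error. Lgals4, a gut galectin, was at 0.027 to 0.156, and Lgals7, a keratinocyte galectin, at 0 to 0.156. Lgals2 was listed at 0 in 6 of 8 libraries, and Lgals12 and Grifin in all 8.

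The medium comparison asks whether matrix made in TCM gave melanoma cells other galectin levels than matrix made in SFM. Lgals3bp was lower on TCM matrix in 4 of 4 matched pairs, by 0.51 with siNT, 0.03 with siKLF4, 0.16 with siFN and 0.24 with siKLF4-siFN on the log2(FPKM + 1) scale. Its FPKM ranged from 2.70 to 4.45 (median 4.05) on TCM matrix and from 4.27 to 5.07 (median 4.54) on SFM matrix, and the groups overlapped. With siKLF4 the TCM to SFM ratio of FPKM was 0.97, within counting errors of 8.30% and 9.10%. With siFN the ratio was 0.88, at counting errors of 7.05% and 6.35%, so the shared direction leans on small differences. Lgals3 had no common direction: TCM minus SFM was 0.67 with siNT, -0.03 with siKLF4, -0.73 with siFN and -0.84 with siKLF4-siFN. The last 2 values describe less Lgals3 RNA on TCM matrix where the matrix came from siFN-treated cells. Lgals1 was higher on TCM matrix in 2 pairs and lower in 2 (-0.43 to 0.32), and Lgals8 was higher only with siNT (0.41, the others -0.20 to -0.03).

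In the additive limma model, where libraries sharing a level stand in for replicates, TCM minus SFM was -0.23 ± 0.14 (SE, log2, 4 libraries a level) for Lgals3bp and -0.23 ± 0.30 for Lgals3. It was -0.0068 ± 0.19 for Lgals1 and 0.00097 ± 0.13 for Lgals8. None of the 4 measured genes passed an adjusted p of 0.05, where limma called 0 of 6917 genes, 0.0% (464 at an unadjusted p under 0.05). Nothing is read from that count, since the genes were chosen with this contrast in view. The additive model also has no interaction term. A medium or siFN difference that changes with the other factor is averaged in it and adds to the residual spread. A lack of calls in it therefore does not show that there was no difference.

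**Figure D2:**
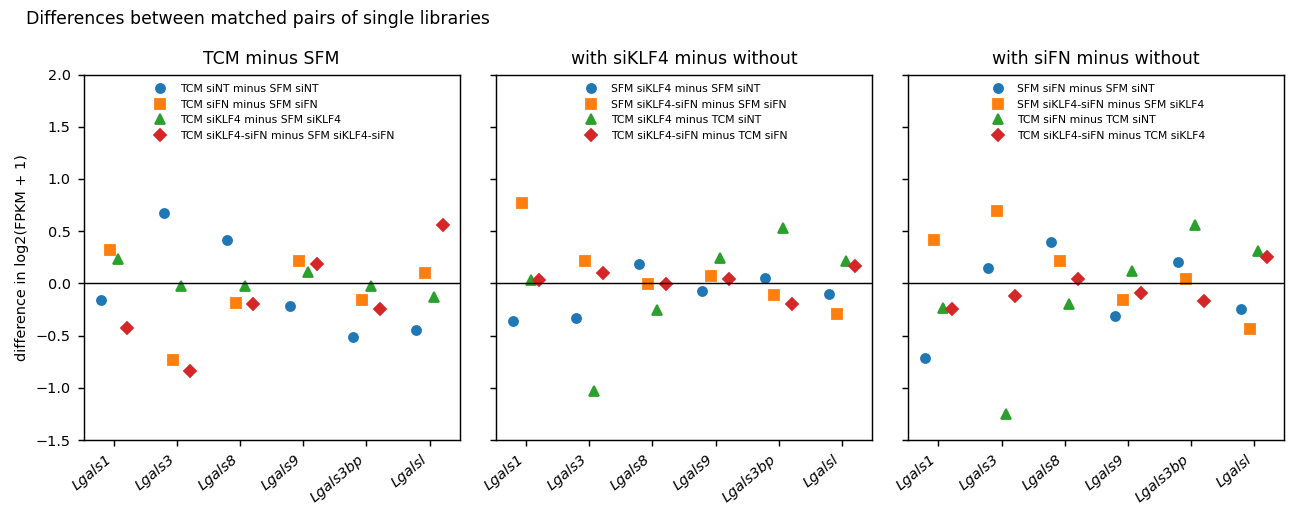
Difference in log2(FPKM + 1) for each of 4 matched pairs of single libraries per factor, for the 5 genes and Lgalsl, without a test. The lowest values are those of Lgals3 for TCM siFN minus TCM siNT (-1.25) and TCM siKLF4 minus TCM siNT (-1.03).

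The siKLF4 comparison asks the same for matrix of smooth muscle cells given siKLF4. Lgals3 was lower with siKLF4 where siFN was absent and higher where it was present. The log2 difference was -1.03 on TCM matrix and -0.33 on SFM matrix without siFN, and 0.10 and 0.21 with it. The absolute difference on TCM matrix without siFN was larger than the absolute difference of 98.4% of tested genes in that pair (median 0.15). This share is not matched for level and is no test, since the genes were chosen with these differences in view. Lgals3bp lay the other way, at 0.53 and 0.05 without siFN and at -0.20 and -0.11 with it, again for TCM and then SFM matrix. Lgals1 was at 0.77 between SFM siKLF4-siFN and SFM siFN, at -0.36 between SFM siKLF4 and SFM siNT, and at 0.04 without siFN and 0.03 with it on TCM matrix. Additive estimates ranged from -0.26 ± 0.30 for Lgals3 to 0.12 ± 0.19 for Lgals1 (SE, log2), with no gene of the 4 past the threshold and 0.0% of all tested genes called by limma (84 unadjusted).

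The siFN comparison asks whether galectin levels differed on matrix of cells given siFN. Lgals3 was lower with siFN on TCM matrix, by 1.25 without siKLF4 and by 0.12 with it, and higher on SFM matrix, by 0.15 and 0.70. The first of these exceeded the absolute difference of 99.1% of tested genes in that pair (median 0.18). That share too is not matched for level and is no test, since the genes were chosen with these differences in view. This pair and those of TCM siNT with TCM siKLF4 and with SFM siNT share the TCM siNT library. Lgals8 was higher with siFN on SFM matrix (0.40 without siKLF4, 0.21 with it) and at -0.20 and 0.04 on TCM matrix. Lgals1 was lower in 3 of 4 pairs, the largest fall being 0.71 in SFM siFN against SFM siNT, and higher by 0.42 in SFM siKLF4-siFN against SFM siKLF4. Additive estimates ran from -0.19 ± 0.19 for Lgals1 to 0.16 ± 0.14 for Lgals3bp, with none of the 4 genes past the threshold and 0.0% of tested genes called (84 unadjusted).

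The media by siFN interaction is the TCM minus SFM difference with siFN, less the same difference without it. It was fitted because an earlier report on these data found most variance along it. Its calls and adjusted p-values are therefore no independent test. Here limma called 496 of 6917 genes, 7.17%, and none of the 4 measured galectin genes (265 genes or 3.83% higher, 231 or 3.34% lower). Nothing is read from this count either. The estimate was -1.11 ± 0.42 (SE, log2) for Lgals3, -0.38 ± 0.20 for Lgals8, -0.09 ± 0.37 for Lgals1 and 0.07 ± 0.27 for Lgals3bp. The median over all tested genes was -0.06. Without TCM siNT the Lgals3 estimate was -0.60, and without TCM siKLF4 it was -1.62. Lgalsl had 0.62 ± 0.22 (adjusted p = 0.108), and past the threshold only without SFM siFN.

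By rank alone, the 3 libraries lowest in genes of cell division were also the highest or lowest 3 for several galectin genes. After subtracting each gene's mean log2 level, the 16 measured mitosis genes averaged 0.64 in TCM siKLF4-siFN, 0.63 in TCM siFN, 0.58 in TCM siKLF4 and -0.61 in TCM siNT, against -1.28 in SFM siKLF4-siFN, -1.25 in SFM siFN, 0.65 in SFM siKLF4 and 0.65 in SFM siNT. In the 3 libraries below 0, Lgals3 and Lgals8 had their 3 highest values and Lgals9 and Lgalsl their 3 lowest. For each of these genes the border with the next library in rank lay within counting error. That check covers only libraries adjacent in rank, so it cannot decide whether the 3 stand apart as a group, which was not tested. Lgals1 and Lgals3bp took both high and low values in these 3 libraries. Cd68, a lysosomal protein gene used as the macrophage marker, had an FPKM of 1.95 in TCM siKLF4-siFN, 2.36 in TCM siFN, 2.65 in TCM siKLF4 and 4.52 in TCM siNT, against 2.69 in SFM siKLF4-siFN, 3.60 in SFM siFN, 3.32 in SFM siKLF4 and 2.38 in SFM siNT. Like Lgals3 it was highest in TCM siNT. Cd68 was the only 1 of 8 listed macrophage and leukocyte markers that averaged an FPKM of 1 or more. Lyz2 averaged 0.058 and Csf1r 0.00076, and Adgre1, Itgam and C1qa were listed at 0 throughout. The part of cell division in the galectin values was not tested, and the Cd68 values are not read as a sign of macrophages. In bulk RNA, fewer cells with a transcript and less of it per cell cannot be told apart.

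**Figure D3:**
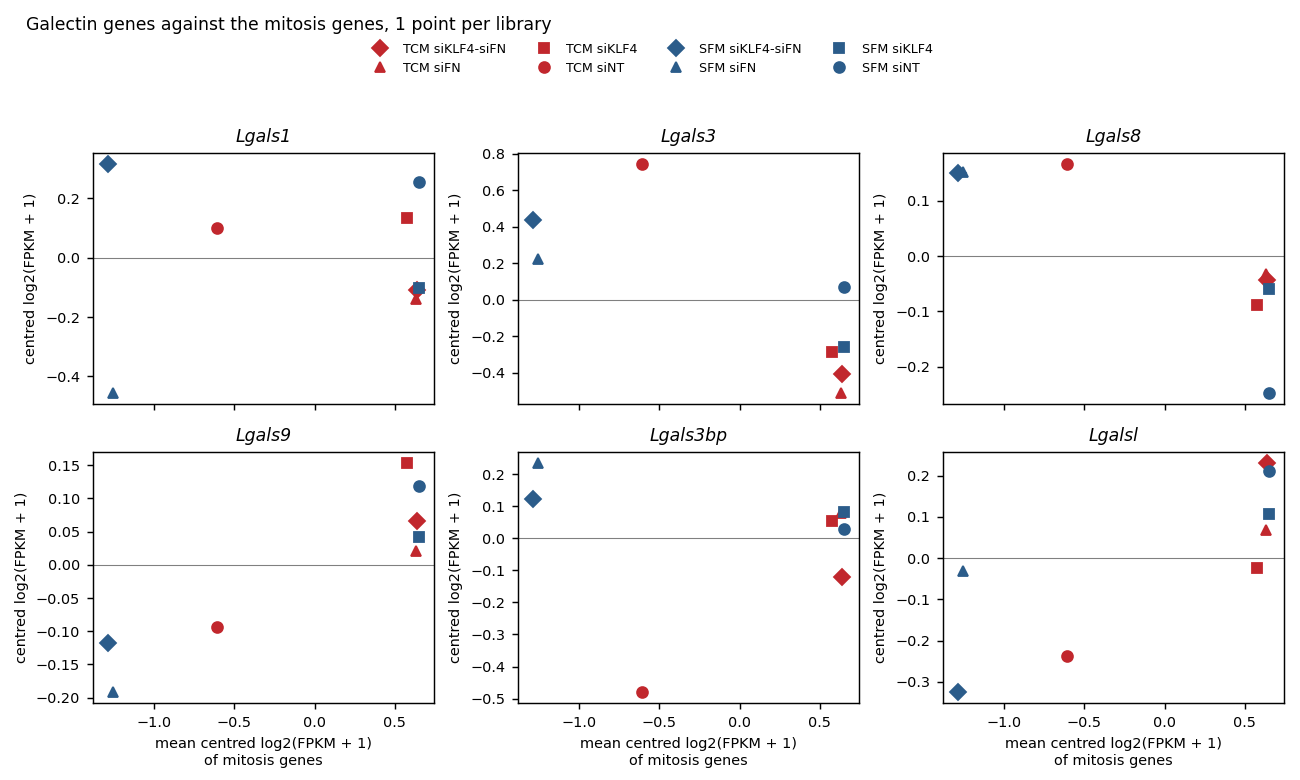
Centred log2(FPKM + 1) of each gene against the mean of the mitosis genes, 1 point per library (red TCM, blue SFM; shape gives the siRNA). TCM siNT, SFM siFN and SFM siKLF4-siFN lie left of 0, with Lgals3 and Lgals8 above their mean and Lgals9 and Lgalsl below it. For these genes the border with the next library in rank is within counting error.

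Over the 8 libraries, Pearson's r of log2(FPKM + 1) was 0.62 between Lgals3 and Lgals8, -0.90 between Lgals8 and Lgals9 and -0.74 between Lgals3 and Lgalsl, and 0.30 between Lgals1 and Lgals3. These are descriptions over 8 libraries that share the shift in mitosis genes. Among 1798 named genes that averaged an FPKM of 5 or more, the profile of Lgals3 was most like those of Cmtm3 (0.96), Nr2c2ap, Cdc42se1, Myl12a, a myosin light chain, and Taldo1, the transaldolase of the pentose phosphate pathway (0.92). Lgals8 was most like Hdlbp (0.98), the amino acid transporter gene Slc38a1, Sel1l of endoplasmic reticulum protein degradation, the RNA helicase gene Ddx17 and the autophagy gene Gabarapl1 (0.93). The closest to Lgals1 were the glycolytic gene Gapdh (0.95), the integrin-linked kinase gene Ilk, Gstm2, Capns1 and Selm (0.93). Gapdh stood at 101 in TCM siKLF4-siFN, 98.5 in TCM siFN, 115 in TCM siKLF4 and 98.1 in TCM siNT, against 135 in SFM siKLF4-siFN, 76.1 in SFM siFN, 98.5 in SFM siKLF4 and 125 in SFM siNT. Like Lgals1, it had its highest and lowest values in those 2 SFM siFN libraries.

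The closest to Lgals9 were Traf4 (0.99), the tubulin gene Tubb4b, Ube2s, a ubiquitin enzyme of mitosis, Ei24 and Atp5c1 (0.97), for a gene counted in few reads. For Lgals3bp, 1 of the 1798 genes had an r above 0.9: Ndufa1, a subunit of respiratory complex I, at 0.93. The next, Pbxip1, reached only 0.76, followed by Snrpd2, Rpl9 and Tmem254c. Only TCM siNT was apart from its neighbour by counting error for Lgals3bp, so a distinct profile is not shown. Ndufa1 also had its lowest FPKM in TCM siNT (4.97, against 6.17 to 6.57 in the other libraries).

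Galectin ligands are built by glycosyltransferases that branch N-glycans and extend or cap their galactose. Of 29 such genes listed, 12 were measured, and in the media by siFN interaction 1 had a positive estimate past the threshold and none a negative one (median -0.25, against -0.06 over all tested genes). With 7.17% of all tested genes called, 1 gene of 12 is near the background, and nothing is read from it about the list. It was St3gal1, a sialyltransferase that caps galactose on O-glycans, at 1.33 ± 0.30 (SE, log2, adjusted p = 0.0485). Its FPKM was 8.50 in TCM siKLF4-siFN, 8.18 in TCM siFN, 8.84 in TCM siKLF4 and 6.79 in TCM siNT, against 5.15 in SFM siKLF4-siFN, 2.44 in SFM siFN, 10.1 in SFM siKLF4 and 9.54 in SFM siNT. SFM siFN was lowest by far. The next smallest p for the interaction belonged to Slc35a2, the UDP-galactose transporter gene, at -0.73 ± 0.18 (adjusted p = 0.0597).

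Of 26 glycoproteins known to bind galectins, 14 were measured, and in the same interaction 1 had a negative estimate past the threshold and none a positive one (median -0.09). This too is near the 7.17% of all tested genes, so it says nothing about galectin ligands as a list. The interaction of Slc3a2, which encodes the CD98 heavy chain, a galectin-3 ligand and part of amino acid transporters, was -1.13 ± 0.24 (SE, log2, adjusted p = 0.0444). Its FPKM was 27.9 in TCM siKLF4-siFN, 29.7 in TCM siFN, 36.8 in TCM siKLF4 and 45.04 in TCM siNT, against 51.9 in SFM siKLF4-siFN, 45.4 in SFM siFN, 29.1 in SFM siKLF4 and 32.3 in SFM siNT. It was high in the same 3 libraries as Lgals3. Slc3a2 is named because it passed this interaction, and the sign of the interaction largely sets that pattern. The likeness to Lgals3 is therefore no separate result. The interaction of Cd44, the hyaluronan receptor, was 0.71 ± 0.17 (adjusted p = 0.0549). The calls of St3gal1 and Slc3a2 held without SFM siFN and were lost when any other of the 8 libraries was left out, with a pseudocount of 0.1 or without the filter, and their estimates ran from 0.99 to 1.67 and from -1.31 to -0.95 over the 8 fits with a library left out.

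**Figure D4:**
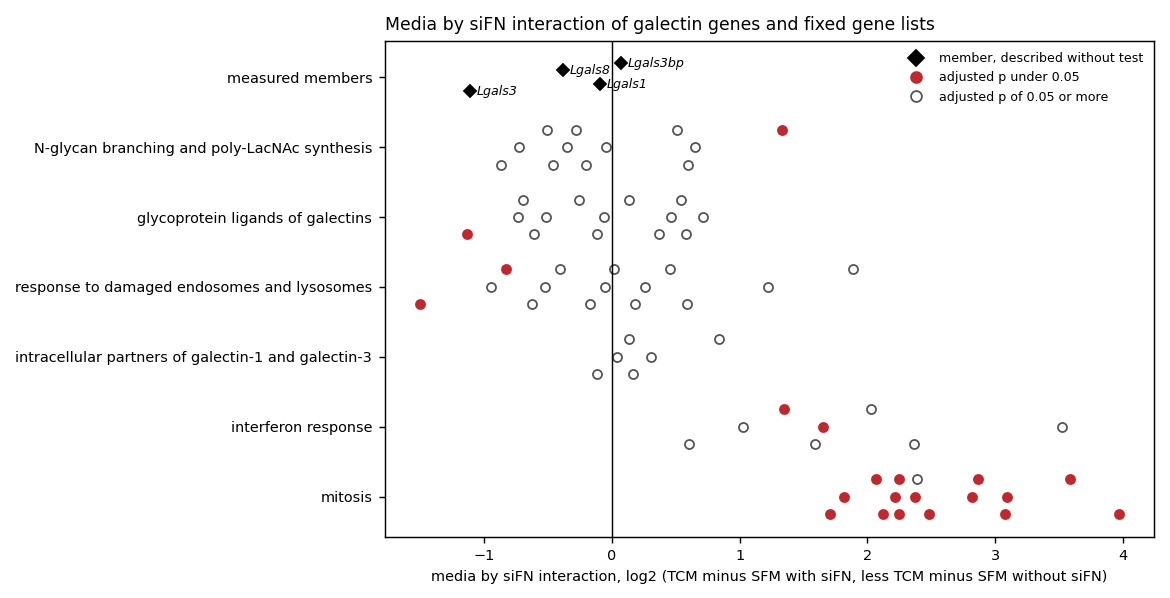
Media by siFN interaction of the 4 measured galectin genes (black diamonds, described without a test) and of the measured genes of each list (circles, filled red at an adjusted p under 0.05). Most circles right of 1 are mitosis and interferon genes, and Lgals3 lies at -1.11.

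Of 21 genes that act when endosomes or lysosomes are damaged, 15 were measured and 2 had a negative interaction past the threshold, with none positive. The list median was -0.06, as over all tested genes, of which 7.17% were called and 3.34% called lower. With so few genes, nothing is read about the list from the 2 that were called. These were the protease gene Ctsl (-1.51 ± 0.34, adjusted p = 0.048) and Mcoln1, a lysosomal calcium channel gene (-0.83 ± 0.18, adjusted p = 0.047). The FPKM of Ctsl was 51.7 in TCM siKLF4-siFN, 49.8 in TCM siFN, 53.6 in TCM siKLF4 and 85.5 in TCM siNT, against 108 in SFM siKLF4-siFN, 88.2 in SFM siFN, 43.9 in SFM siKLF4 and 46.4 in SFM siNT. It was high in the 3 libraries where Lgals3 was high, which again follows largely from the sign of the interaction for which Ctsl is named. Of 10 intracellular partners of galectin-1 and galectin-3, 6 were measured and none passed. Among them the interaction of Ctnnb1, which encodes beta-catenin, was 0.31 ± 0.23 (adjusted p = 0.376). Of 29 interferon response genes, 8 were measured, and the interaction of Ifit2 (1.65 ± 0.36, adjusted p = 0.0474) and of B2m (1.35 ± 0.31, adjusted p = 0.0494) was positive and past the threshold. The list median was 1.62, against -0.06 over all tested genes, of which 3.83% were called higher. The FPKM of B2m was 26.9 in TCM siKLF4-siFN, 24.6 in TCM siFN, 24.3 in TCM siKLF4 and 17.4 in TCM siNT, against 12.5 in SFM siKLF4-siFN, 14.8 in SFM siFN, 25.7 in SFM siKLF4 and 32.5 in SFM siNT. It was low in those 3 libraries, which likewise follows largely from the sign of its interaction. The calls of Ctsl, Mcoln1, Ifit2 and B2m were lost with a pseudocount of 0.1, without the filter, and when any library other than SFM siFN or TCM siKLF4 was left out. That of Mcoln1 was also lost without TCM siKLF4, and that of Ctsl with median-centred libraries. The interaction of Lgals3bp, known as interferon-induced, was 0.07. In the additive fits none of these lists held a called gene.

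TCM siFN and TCM siKLF4-siFN were the closest of the 28 pairs of libraries, with a root mean square log2 difference of 0.17, and the 5 galectin genes differed between them by at most 0.20. That largest difference, of Lgals3bp, stood against a median absolute difference of 0.06 over tested genes in the pair.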

How the data were processed

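The authors deposited FPKM values for 46477 gene symbols in 8 libraries, made with STAR 2.4.1d and Partek on mm10 per the submitters' processing notes. Neither the counting rule nor the annotation or strand setting is given in the sources used here. Values down to 1.23e-30 for Lgals1-ps2 show that reads were shared out between features by estimation. Coordinates and overlaps are from GENCODE M21 (GRCm38, the assembly of mm10), which matched 90.4% of symbols. Depth was taken from the step that put the largest share of low values (45.4% to 49.3%) within 0.05 read of a whole number, where a preset step would give 10%. Depths, read numbers and counting errors are therefore approximate, and no count test was run. The check of neighbours in rank used 95% limits of counting error, at the longest annotated transcript, and took no account of differences in library scale.

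The fits used log2(FPKM + 1) of the 6917 genes averaging an FPKM of 1 or more, and the pseudocount of 1 understates changes at low levels. Models were fitted by limma 3.58.1 (R 4.3.3; figures by matplotlib 3.10.9) with a variance trend, two-sided, with Benjamini-Hochberg adjustment over all tested genes. The additive model had medium, siKLF4 and siFN, and the interaction model added medium by siFN. Whether libraries stem from separate cultures is not labelled, and p-values reflect the spread among these 8 libraries alone. The fits were tested on simulated data. The alternatives were a pseudocount of 0.1, no filter, a stricter filter at a mean of 5, median-centred libraries, and leaving out each library. Members, gene lists and the media by siFN interaction were chosen with earlier results of these data known. The text names the 5 genes, the other galectin genes, list members past the threshold (at most 6 a list) or otherwise the 2 with the smallest p, and the 5 genes most like each member. The mitosis and marker lists served as checks, and a few list genes past the threshold are named in the closing section. Cd44 and Slc35a2 stand beside the single call of their lists by the same rule. 1 gene that the rule names is not reported here.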

Additional observations from a re-analysis of the deposited data

Results flagged for a closer look

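Differences that were not alike at both levels of another factor are given here as values. In the fit with the media by siFN interaction, limma called 496 genes, a count that depended strongly on the processing, as given below. Lgals3 was lower with siFN in both TCM pairs and higher in both SFM pairs, a difference of -1.11 between the media, given as a description. Its siKLF4 difference was positive in both pairs with siFN and negative in both without it, 0.84 apart, and this was not tested. For Lgals3bp the siKLF4 difference had the opposite signs, -0.45 apart, which was not tested either. Lgalsl was higher on TCM than SFM matrix in both pairs with siFN and lower in both without it, a difference of 0.62 that did not pass (adjusted p = 0.108). The same value describes its siFN difference by medium. Its siKLF4 difference was positive in both TCM pairs and negative in both SFM pairs, 0.39 apart, and this was not tested.

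Among listed genes, those past the threshold for the interaction were St3gal1 at 1.33, B2m at 1.35, Ifit2 at 1.65 and the tyrosinase gene Tyr at 1.33, and, in the other direction, Slc3a2 at -1.13, Ctsl at -1.51 and Mcoln1 at -0.83 (log2). Of the 16 measured mitosis genes 15 passed, against 7.17% of all tested genes. The interaction of the first 8 in alphabetical order was Anln 1.82, Aurka 2.06, Aurkb 2.82, Birc5 3.10, Ccna2 3.59, Ccnb1 3.07, Cdc20 2.37 and Cdk1 2.12. The others were Ckap2 2.22, Kif20a 2.48, Mki67 2.25, Plk1 2.25, Prc1 2.86, Top2a 3.97 and Tpx2 1.71. All 22 called list genes fell short of the threshold with a pseudocount of 0.1, and likewise without the filter.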

How the results depend on the processing

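In the additive fits limma called 0 genes under all 12 alternatives for medium and for siKLF4. For medium 222 to 997 genes, and for siKLF4 30 to 451, stood at an unadjusted p under 0.05. For siFN it called 0 genes except 1 without TCM siNT, so the range with a library left out was 0 to 1. For the media by siFN interaction the count was 496, against 0 with a pseudocount of 0.1, 14 without a filter, 251 at a mean FPKM of at least 5 and 509 with median-centred libraries. With a library left out it ranged from 0 to 2065: 2065 without SFM siFN, 553 without TCM siKLF4, 51 without TCM siNT and 0 without any of the other 5. The cause was not tested, but each such fit has 1 library fewer. The interaction of Lgals3 stayed below 0 over the 12 alternatives (-1.62 to -0.60) and that of Lgals8 over 11 (-0.54 to -0.23). Those of Lgals1 (-0.53 to 0.34) and Lgals3bp (-0.24 to 0.38) changed sign. Lgals9 was fitted only without the filter. The TCM minus SFM estimate of Lgals3bp stayed below 0 (-0.34 to -0.11). No paired analysis of replicates was possible because each condition has 1 library and the labels give no replicate numbers. The matched pairs above differ in 1 factor and were described without a test. Depth limits Lgals9 to a handful of reads.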
